A study of Mus musculus with 24 samples.

Results

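Sarcomere and Z-disc genes encode the contractile lattice of the cardiomyocyte, from the thick and thin filaments to titin, the M-band, the Z-disc, the desmin network and the ligases that turn these proteins over. 40 such genes were taken by symbol from the 15667 genes listed for uninjected mouse hearts and the 15327 listed for injected hearts, and all 40 were found and passed the filter on low values in both. Hearts of mice at postnatal day 7.5 formed 6 groups of 4 libraries: uninjected wild type (WT), uninjected *Xinβ* KO, and WT or *Xinβ* KO hearts that received AAV9-*GFP* or AAV9-*YAP* S127A (called GFP and aYAP) at postnatal day 1. The KO is a germline allele in which parts of neighbouring *Xinβ* (*Xirp2*) exons and the intron between them were replaced by a LacZ-Neo cassette, on a C57BL6 background, and the WT mice were littermates. Both vectors were subcutaneous injections driven by a chicken cardiac troponin T promoter, so every injected group carried a vector, and the YAP S127A protein is a human YAP that escapes inhibitory phosphorylation. The labels name the heart apex as tissue and the methods name ventricles, and each library is taken as 1 heart. Whether replicates were separate litters was not stated, so p-values measure the spread between these libraries.

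In a sarcomere, myosin thick filaments slide along actin thin filaments, and the troponin complex of troponin T, troponin C and troponin I places tropomyosin under the control of calcium. The Z-disc anchors thin filaments through alpha-actinin and also holds signalling proteins such as calsarcin-1, the product of *Myoz2*. Xinβ is a striated muscle protein of the intercalated disc, the junction through which the contractile apparatus of neighbouring cells is joined, and YAP is the effector of the Hippo pathway, which acts through TEAD factors.

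7 of the 40 members were called in at least 1 comparison, at a Benjamini-Hochberg-adjusted p-value under 0.05 in limma over all genes tested, and 33 were called in none. This is 17.5% of the members, beside 22.2% of the 13734 genes tested in both tables, so the share was not above that of all genes. *Tnnt2* (cardiac troponin T) and *Myoz2* were higher in *Xinβ* KO than in WT hearts in both the uninjected and the GFP-injected experiment. *Tnnt2*, *Myoz2*, *Des* (desmin, the muscle intermediate filament protein), *Trim63* (MuRF1, a muscle ubiquitin ligase) and *Mypn* (myopalladin, a Z-disc protein) were called both between KO GFP and WT GFP and between KO aYAP and KO GFP. These 5 are 12.5% of the members, beside 9.58% of the 14597 injected genes called in both. The KO GFP libraries are shared by those comparisons, and every gene called in both moved in opposite directions. Differences are given as log2 fold changes of CPM + 1, where CPM is the authors' depth-scaled read count.

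The 250 bases before the annotated start of these 5 members are shown, because the 5 were called in both comparisons. They come from RefSeq (GRCm38.p6), read 5′ to 3′, and capitals mark a match to a TEAD motif (CATTCC), a MEF2 motif (CTANNNNTAG), a CArG box or a FOXO motif (GTAAACA) on either strand.
Tnnt2, chr1:135836084-135836333, plus strand: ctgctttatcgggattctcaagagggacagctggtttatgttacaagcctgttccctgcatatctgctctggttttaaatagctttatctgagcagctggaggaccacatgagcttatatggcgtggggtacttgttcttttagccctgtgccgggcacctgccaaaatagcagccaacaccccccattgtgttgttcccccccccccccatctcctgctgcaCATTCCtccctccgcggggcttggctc
Myoz2, chr3:123034988-123035237, minus strand: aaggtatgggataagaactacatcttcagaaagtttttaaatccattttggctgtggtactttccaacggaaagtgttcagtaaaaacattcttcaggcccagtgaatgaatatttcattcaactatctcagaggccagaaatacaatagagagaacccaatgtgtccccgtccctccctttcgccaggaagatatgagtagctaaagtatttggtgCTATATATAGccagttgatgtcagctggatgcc
Des, chr1:75360042-75360291, plus strand: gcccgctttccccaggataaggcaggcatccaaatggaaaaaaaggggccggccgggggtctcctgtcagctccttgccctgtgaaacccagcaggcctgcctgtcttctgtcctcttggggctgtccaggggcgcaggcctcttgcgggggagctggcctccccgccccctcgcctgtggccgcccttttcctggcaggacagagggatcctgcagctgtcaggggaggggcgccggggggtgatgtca
Trim63, chr4:134314870-134315119, plus strand: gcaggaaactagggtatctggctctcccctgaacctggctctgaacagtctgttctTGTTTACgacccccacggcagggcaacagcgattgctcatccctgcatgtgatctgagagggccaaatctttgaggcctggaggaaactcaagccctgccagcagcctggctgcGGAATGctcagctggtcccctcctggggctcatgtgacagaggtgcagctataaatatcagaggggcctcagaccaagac
Mypn, chr10:63203953-63204202, minus strand: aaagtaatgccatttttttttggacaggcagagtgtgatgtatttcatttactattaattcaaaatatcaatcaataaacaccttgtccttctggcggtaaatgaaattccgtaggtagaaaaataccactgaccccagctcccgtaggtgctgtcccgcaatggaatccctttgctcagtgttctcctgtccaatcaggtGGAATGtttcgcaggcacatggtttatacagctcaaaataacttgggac

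The *Tnnt2* window held a TEAD match 27 bases before the start, *Mypn* a TEAD match 49 bases before it, and *Trim63* a TEAD match at 80 bases and a FOXO match at 194 bases. *Myoz2* held a MEF2 match at 33 bases, and *Des* held none of the 4 motifs in this window. 35 of the 40 members had a RefSeq window, set before the RefSeq start nearest that of the transcript used for length. For *Ttn*, *Fhl1* and *Myl2* this start lay 2365, 47896 and -7794 bases away, so their windows may not belong to that transcript. The *Ttn* MEF2 match and the *Fhl1* CArG box are counted all the same. A TEAD match was present in 31.4% of these 35, beside 12.6% of 27025 promoter windows, a MEF2 match in 17.1% beside 3.23%, a CArG box in 14.3% beside 1.4%, and a FOXO match in 2.86% beside 3.09%. The matches are descriptions of letters and not bound sites, and 8 of the 11 members with a TEAD match, among them *Myl3*, *Tnnc1*, *Tpm1* and *Flnc*, were called in no comparison.

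The libraries held 15015038 to 31154155 reads on genes. *Xirp2*, the targeted gene, was at 106 to 168 CPM in the uninjected WT hearts and at 0.291 to 0.692 CPM in the uninjected KO hearts. In the injected hearts it was at 56.0 to 149 CPM in WT and at 0 to 0.972 CPM in KO, so every library fitted its genotype label. 1 uninjected KO heart stood apart. In KO uninjected replicate 1 the members' deviations from their means over all libraries fell with transcript length (Spearman's rho = -0.79 over 40 members, and -0.58 over 15591 genes), while in the other 3 uninjected KO hearts rho over the members was between 0.09 and 0.24. In the 4 uninjected WT hearts it was 0.60, 0.66, 0.26 and -0.05. Among the injected hearts the values over the members ran from -0.51 in WT aYAP replicate 4 to 0.44 in WT GFP replicate 4. The estimates for the called members and the counts over the members in uninjected hearts are also given without that library.

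**Figure D1:**
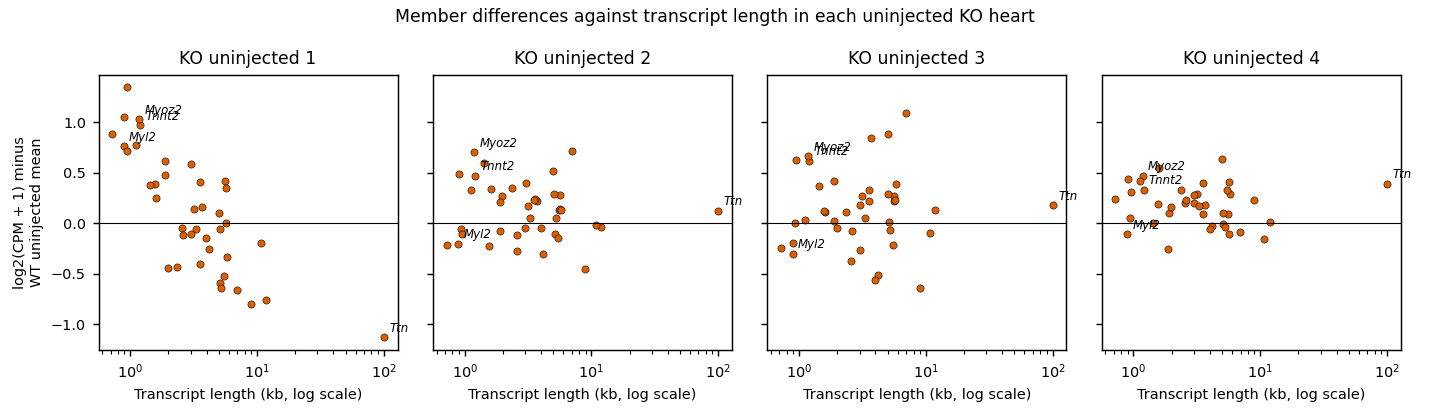
Each point is 1 of the 40 members in 1 uninjected *Xinβ* KO library, with transcript length in kb on a log axis and log2(CPM + 1) minus the mean of the 4 uninjected WT libraries on the other. In replicate 1 short transcripts such as *Myl2* lie above 0 and the titin gene *Ttn* lies below it, and in the other 3 libraries no such slope is seen.

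The members made up 5.05% to 6.22% of the summed values in the uninjected libraries and 4.26% to 5.10% in the injected ones. Per kb of transcript, the thick filament light chains and the troponin-tropomyosin genes were the most abundant. In WT GFP hearts the mean levels were 6120 CPM per kb for *Myl2* (regulatory light chain), 5438 for *Tnnt2*, 5258 for *Myl3* (essential light chain), 3278 for *Tnnc1* (cardiac troponin C) and 2932 for *Tpm1* (tropomyosin), and the libraries of the first 3 overlapped, as did those of *Tnnc1* and *Tpm1*. The next gene, *Mybpc3* (cardiac myosin-binding protein C), was at 895 CPM per kb. *Myom3* (myomesin-3) was lowest at 0.567 CPM per kb, below *Fbxo32* (atrogin-1, a ubiquitin ligase) at 8.68. In KO GFP hearts the order at the top changed. *Tnnt2* was at 8191 to 9126 CPM per kb and *Myl2* at 4071 to 7534, so that the libraries of these genes did not overlap, and in KO aYAP hearts *Tnnt2* was at 5270 to 5823 beside 4771 to 5609 for *Myl2*, with overlap.

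**Figure D2:**
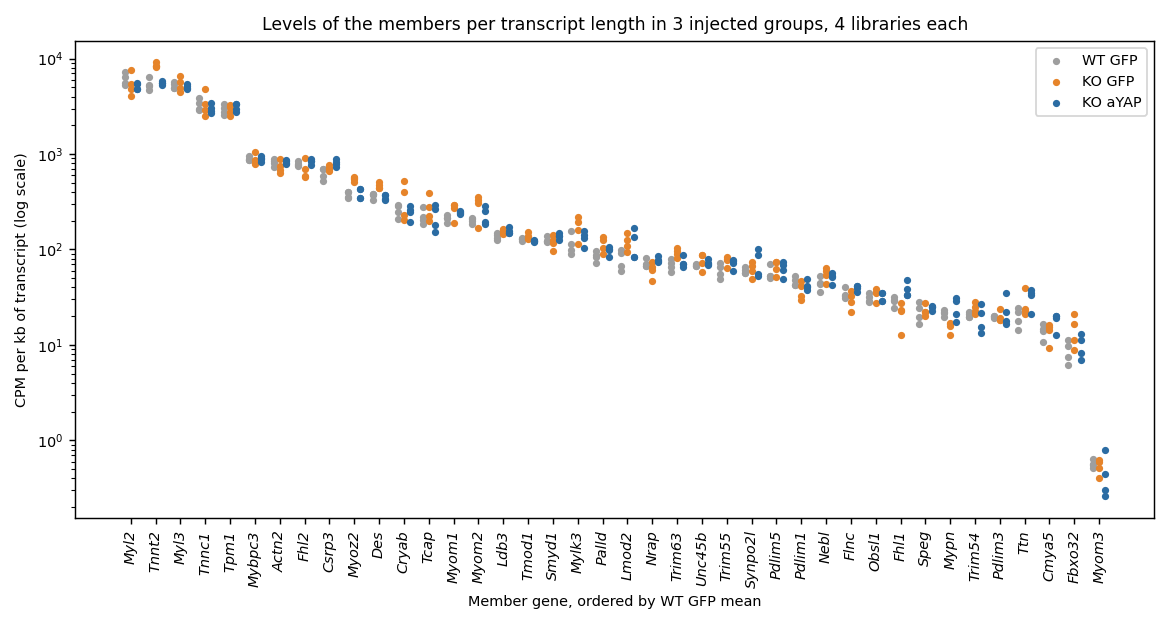
Each point is 1 library of the WT GFP, KO GFP or KO aYAP group, with CPM per kb of transcript on a log axis and the 40 members ordered by their WT GFP mean. The KO GFP points of *Tnnt2* lie above those of the other 2 groups, and for most members the 3 groups overlap.

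The first comparison asks what loss of Xinβ does to these transcripts in the uninjected heart. In uninjected hearts *Tnnt2* and *Myoz2* rose in *Xinβ* KO, and 38 of the 40 members did not pass the test. *Tnnt2* was at 12441, 8787, 9736 and 7980 CPM in the 4 KO hearts and at 6159, 6191, 6347 and 6663 CPM in the 4 WT hearts. Every KO heart lay above every WT heart, and replicate 1, the library that stood apart, was the highest. The difference was 0.60 ± 0.15 (SE, n = 4 per group, limma adjusted p = 0.045), and without replicate 1 it was 0.47 (adjusted p = 0.016). Under quantile normalization it was 0.36 (adjusted p = 0.057). The call was lost in 8 of 17 alternatives (quantile normalization, a replicate block, and without any 1 of the 4 WT hearts, KO replicate 2 or KO replicate 3), and over all 17 the adjusted p ran from 0.0012 to 0.14.

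*Myoz2* was at 786, 626, 608 and 533 CPM in the KO hearts and at 356, 371, 396 and 412 CPM in the WT hearts, again without overlap. Its difference was 0.72 ± 0.13 (SE, n = 4 per group, limma adjusted p = 0.012), and 0.62 without replicate 1 (adjusted p = 0.0059). The call was lost with a replicate block (adjusted p = 0.066) and without WT uninjected replicate 1 (adjusted p = 0.052), a fit in which no member was called. Calsarcin-1 binds alpha-actinin, and *Actn2*, the gene of that partner, differed by -0.06 (limma adjusted p = 0.82). The ratio of *Tnnt2* to *Actn2* within a library, which a single scaling factor per library leaves unchanged, was 2.70 to 5.19 in the KO hearts and 2.34 to 2.60 in the WT hearts, and that of *Myoz2* to *Actn2* was 0.180 to 0.328 and 0.141 to 0.155. The length trend of KO replicate 1 is not such a factor, and without that library the KO ranges were 2.70 to 4.56 and 0.180 to 0.285. The ratio of *Tnnt2* to *Tnnc1*, its partner in the troponin complex, overlapped between the groups, at 2.81 to 4.797 in KO and 2.49 to 2.85 in WT.

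2 of the 40 members called is 5% of the list, beside 6.69% of the 15598 genes tested (3.23% higher and 3.46% lower), so the share of members called was near that of all genes. 8 members had an unadjusted p under 0.05, beside 22.5% of all genes. By role, 1 of 6 thin filament members and 1 of 14 Z-disc members rose, and none of the 4 thick filament members, the 5 titin and M-band members, the 5 desmin network and junctional members, the 2 assembly chaperones or the 4 ubiquitin ligases passed. The median log2 fold change of the members was 0.15 (0.0022 under quantile normalization), beside 0.00 over all genes, and 26 of the 40 members had a positive value, beside 50.2% of all genes. The largest negative value was that of *Flnc* (filamin C, an actin crosslinker of the Z-disc), -0.42 with a 95% interval from -0.88 to 0.04. The 95% interval of the difference lay within a 2-fold change for 37 of the 40 members and within a 1.5-fold change for 27. Without replicate 1 the median was 0.14, 29 members had a positive value, *Flnc* was at -0.29, and the intervals lay within these bounds for 39 and 29 members.

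Without replicate 1, 6 members were called, 15% of the list beside 11.3% of all genes in that fit. *Pdlim5* (a Z-disc PDZ-LIM protein) was at 0.68 (limma adjusted p = 0.0057), *Palld* (palladin, an actin crosslinker) at 0.32 (adjusted p = 0.028), *Myom1* (myomesin-1 of the M-band) at 0.32 (adjusted p = 0.031) and *Tmod1* (tropomodulin-1, which caps thin filaments) at 0.24 (adjusted p = 0.035), besides *Tnnt2* and *Myoz2*. With the length trend of each library removed, 5 were called (12.5%, beside 9.83% of all genes), the same list without *Palld*, and *Myoz2* stood at 0.65 (limma adjusted p = 0.0027).

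Genes of the sarcomere outside the members were counted from a list of 69 symbols, of which 68 matched and 66 were tested. 3 were called, 4.55% of those tested, beside 6.69% of all genes. *Pdlim4* (0.91, limma adjusted p = 0.028) and *Synpo2* (myopodin, 0.85, adjusted p = 0.039) were higher in KO, and *Ankrd23*, an ankyrin repeat protein that binds titin, was lower (-1.19, adjusted p = 0.036). Each of the 3 lost its call in 7 or 8 of 17 alternatives, all but the replicate block leaving out 1 library. Without KO uninjected replicate 1, *Ankrd23* was at -1.10 (adjusted p = 0.056).

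Markers of other cells also moved with genotype in these hearts. In the uninjected hearts the summed level of 9 fibroblast markers was 2566 to 3900 CPM in KO and 5200 to 5424 CPM in WT, and 4 of the 9 fell. Of 7 tested macrophage markers 6 fell, with sums of 29.2 to 52.1 CPM in KO and 77.7 to 96.0 CPM in WT. All 6 tested neutrophil markers rose, with sums of 49.8 to 107 CPM in KO and 4.65 to 10.8 CPM in WT. The 16 cardiomyocyte markers outside the sarcomere summed to 30439 to 35315 CPM in KO and 26714 to 27386 CPM in WT, so that their groups did not overlap either, though only *Pln* (phospholamban) rose and *Gja1* (connexin 43) fell among them. The 8 endothelial markers summed to 1267 to 1606 CPM in KO and 1674 to 1837 CPM in WT, and *Kdr* fell (-0.60). Without replicate 1 the fibroblast, macrophage, neutrophil, endothelial and cardiomyocyte sums of the KO hearts still did not overlap those of WT. In bulk tissue, a change in the number of cells and one in RNA per cell cannot be told apart, and the part of cell composition in the members' differences was not tested. Of 17 skeletal muscle markers 13, among them *Myod1*, *Myh4* and *Tnnt3*, were not listed in the uninjected table.

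The next comparison asks the same of hearts that received the control vector. In GFP-injected hearts 5 members rose in *Xinβ* KO (*Tnnt2*, *Myoz2*, *Des*, *Trim63* and *Palld*) and 1 fell (*Mypn*). *Tnnt2* was at 9924, 10951, 9829 and 9953 CPM in the KO GFP hearts and at 6223, 5690, 7776 and 6414 CPM in the WT GFP hearts. Every KO heart lay above every WT heart, by a difference of 0.65 ± 0.11 (SE, n = 4 per group, limma adjusted p = 0.0013). It was called in all 18 alternatives, with an estimate of 0.36 under quantile normalization. *Myoz2* was at 641, 670, 605 and 679 CPM in KO GFP and at 477, 408, 474 and 423 CPM in WT GFP, without overlap, a difference of 0.54 ± 0.09 (SE, n = 4 per group, limma adjusted p = 0.0010) that was called in all 18 alternatives.

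*Des* was at 1445, 1340, 1535 and 1331 CPM in the KO GFP hearts and at 1156, 996, 1155 and 1124 CPM in the WT GFP hearts. The groups did not overlap and differed by 0.35 ± 0.09 (SE, n = 4 per group, limma adjusted p = 0.014). The call was lost in 3 of 18 alternatives, under quantile normalization (0.20, adjusted p = 0.080), without WT GFP replicate 2 and with only these 8 libraries in the model. Exons of *Des* overlap those of an antisense gene, *Gm15179*, over 220 bases, and the strand setting of the counting was not given in the sources used here.

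*Trim63* was at 183, 154, 168 and 198 CPM in KO GFP and at 110, 124, 150 and 137 CPM in WT GFP, without overlap and with a difference of 0.43 ± 0.11 (SE, n = 4 per group, limma adjusted p = 0.017). *Palld* was at 447, 324, 371 and 476 CPM in KO GFP and at 260, 294, 312 and 342 CPM in WT GFP. These groups overlapped in KO GFP replicate 2, and the difference was 0.41 ± 0.12 (limma adjusted p = 0.029). *Mypn* was the member that fell, at 83.4, 65.8, 87.3 and 88.4 CPM in KO GFP and 104, 113, 116 and 121 CPM in WT GFP. All 4 KO hearts lay below all 4 WT hearts, and the difference was -0.48 ± 0.15 (SE, n = 4 per group, limma adjusted p = 0.046). *Trim63* lost its call in 4 of 18 alternatives, among them without KO GFP replicate 1, KO GFP replicate 4 or WT GFP replicate 1. *Palld* lost it in 6, among them without those 3 libraries or WT GFP replicate 2. *Mypn* lost it in 9, among them without any 1 of the 4 WT GFP hearts or KO GFP replicate 1, 2 or 4.

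**Figure D3:**
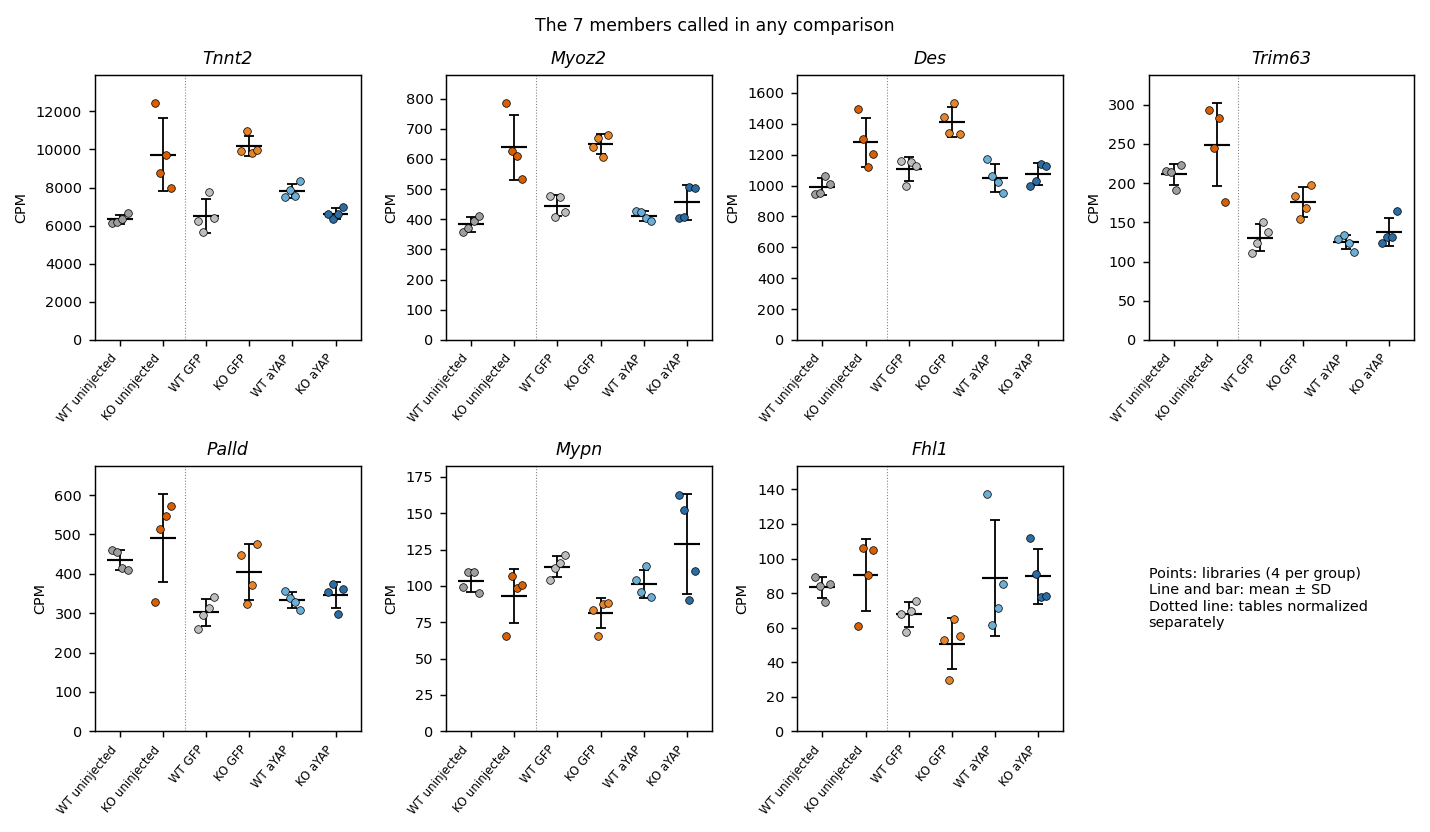
Each panel shows the CPM of 1 of the 7 called members in all 24 libraries, with points for libraries and a line and bar for mean ± SD of 4 libraries. *Tnnt2* and *Myoz2* are higher in the KO uninjected and KO GFP libraries than in their WT controls and lower again in KO aYAP, and *Mypn* has the opposite pattern in the injected hearts.

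6 of 40 members is 15% of the list, beside 13.7% of the 14597 genes tested, so here too the share was near that of all genes. 5 of 40 rose, beside 6.43% of all genes, and 1 fell, beside 7.22%. 15 had an unadjusted p under 0.05, beside 27.4% of all genes, and 27 had a positive value, beside 48.8%. By role, 1 of 6 thin filament members, 2 of 14 Z-disc members, 1 of 5 desmin network and junctional members and 1 of 4 ubiquitin ligases rose, and 1 Z-disc member fell. Among the ubiquitin ligases the median log2 fold change was 0.38, from 0.21 for *Trim54* to 0.68 for *Fbxo32*, and only *Trim63* passed. *Fbxo32* spread widely, from 61.4 to 147 CPM in KO GFP and from 43.2 to 79.0 CPM in WT GFP (limma adjusted p = 0.094). *Ttn* ran from 2119 to 3952 CPM in KO GFP and from 1446 to 2418 CPM in WT GFP, a difference of 0.43 with a 95% interval from -0.17 to 1.03. The median over the members was 0.14 (0.0765 under quantile normalization), beside -0.01 over all genes. 27 of 40 members had the same sign in the uninjected and the GFP comparison, 67.5%, beside 72.3% of 13734 genes tested in both, and these comparisons share no library.

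KO GFP replicate 2 bore on this count. It had the strongest length trend in its group (rho = -0.45 over the members). With the length trend of each library removed, 7 members were called (17.5%, beside 15.1% of all genes), with *Nebl* added and *Mypn* kept. Without KO GFP replicate 2, 12 members were called, 30% of the list beside 18.9% of all genes. Those added were *Myom1*, *Myom2* (myomesin-2), *Mylk3* (cardiac myosin light chain kinase), *Lmod2* (leiomodin-2, a thin filament nucleator), *Nebl* (nebulette), *Unc45b* (a myosin chaperone) and *Trim55* (MuRF2), all higher in KO, and *Mypn* was no longer called. *Myom2* then rose by 0.71 (limma adjusted p = 0.0030), beside 0.47 (adjusted p = 0.13) with all libraries. Without KO GFP replicate 3, 9 members were called (22.5%, beside 15.2% of all genes), with *Fbxo32* (0.89) added as higher and *Fhl2* (-0.34) and *Pdlim1* (-0.42), LIM proteins of the Z-disc, as lower. Without KO GFP replicate 1, KO GFP replicate 4, WT GFP replicate 1 or WT GFP replicate 2, 3 were called (7.5%, beside 8.65%, 8.65%, 9.87% and 9.58% of all genes).

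Of the 64 other sarcomere genes tested in the injected hearts, 11 were called between KO GFP and WT GFP, 17.2% beside 13.7% of all genes, with 6 higher and 5 lower. The 5 with the largest differences included *Myh7* (beta myosin heavy chain, 0.79, limma adjusted p = 0.046) and *Tnni1* (slow skeletal troponin I, the fetal isoform of the heart, 0.64, adjusted p = 0.0085), both higher in KO GFP. *Mybpc2* (fast skeletal myosin-binding protein C, -1.43, adjusted p = 0.0027), *Ankrd23* (-1.06, adjusted p = 0.0073) and *Tpm4* (a non-muscle tropomyosin, -0.63, adjusted p = 0.037) were lower. *Myh7* was at 3413, 1372, 1730 and 4218 CPM in KO GFP and at 1236 to 1545 CPM in WT GFP, so its groups overlapped, and its call was lost in 8 of 18 alternatives, as was that of *Tpm4*.

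The marker lists again moved with genotype. In KO GFP and WT GFP hearts the 9 fibroblast markers summed to 2180 to 3612 CPM and 4667 to 5514 CPM, and 7 of 9 fell. The 9 macrophage markers summed to 32.5 to 89.1 CPM and 96.7 to 152 CPM, with 6 of 8 tested lower, and the 7 erythroid markers to 1213 to 3119 CPM and 3393 to 8425 CPM, with 5 of 7 lower. The neutrophil markers summed to 32.4 to 54.3 CPM and 7.23 to 13.9 CPM, with 3 of 4 tested higher. The skeletal muscle markers summed to 15.0 to 40.5 CPM and 44.2 to 54.1 CPM, without overlap, and of the 5 tested only *Mybpc2* was called, as lower. The 16 cardiomyocyte markers outside the sarcomere summed to 24423 to 26892 CPM in KO GFP and 21480.0 to 24625 CPM in WT GFP, with 4 of 16 higher and overlapping groups. The 8 endothelial markers summed to 1403 to 1528 CPM in KO GFP and 1571 to 1738 CPM in WT GFP, without overlap, and *Cdh5*, *Kdr* and *Tek* fell. *Des* is also 1 of the 8 smooth muscle markers, of which it alone rose and *Myh11* fell (-0.78), with overlapping sums. Their part in the members' differences was not tested.

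**Figure D4:**
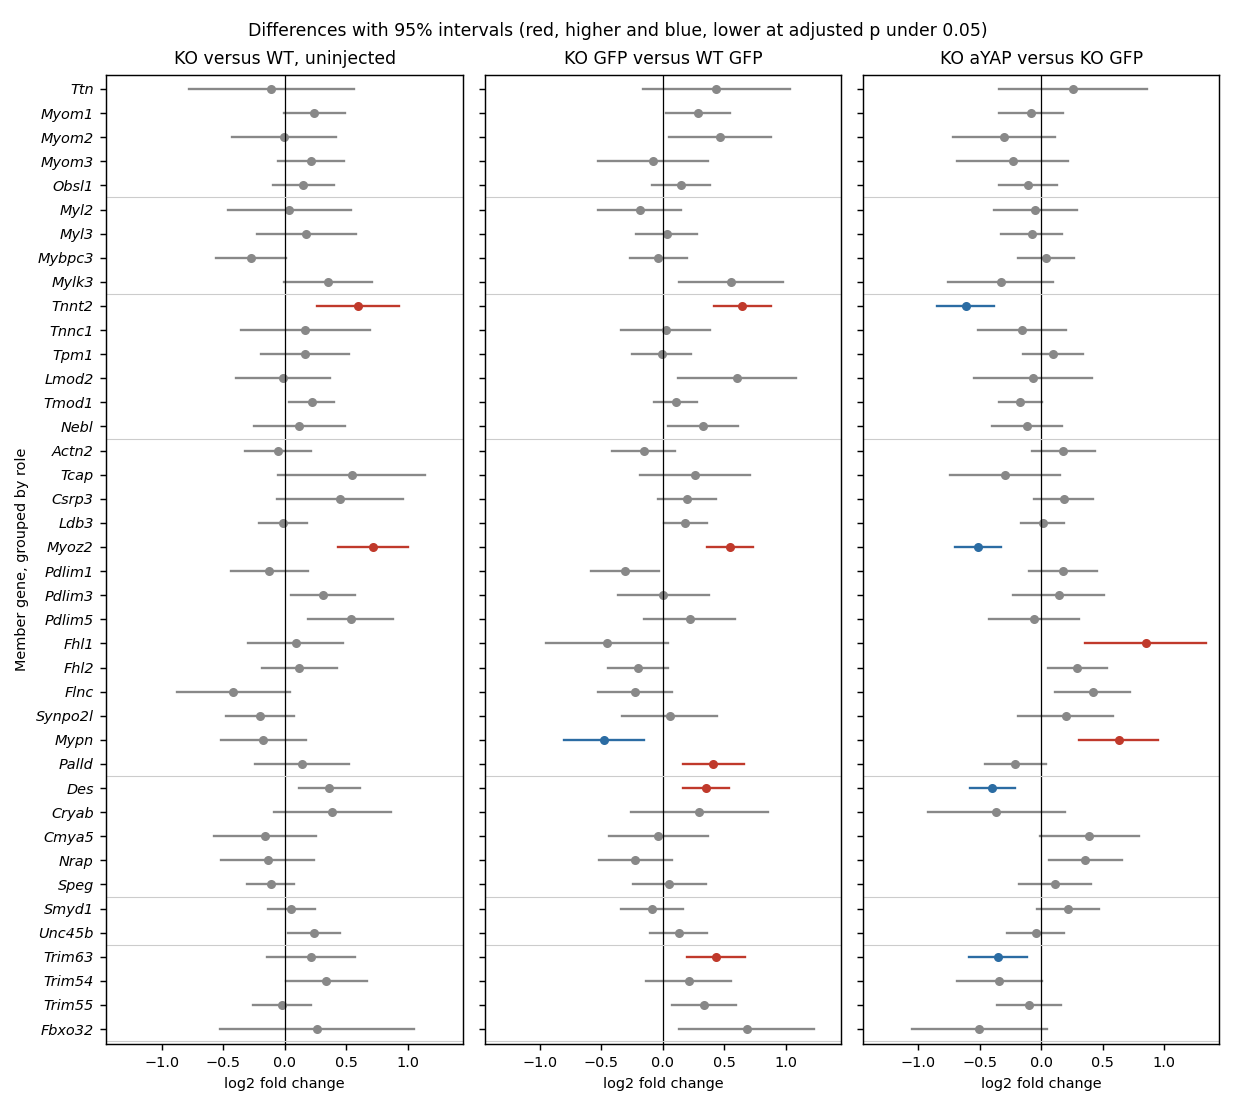
Points give the log2 fold change of each of the 40 members in 3 comparisons and lines the 95% interval, in grey where the limma adjusted p was 0.05 or more, red for higher and blue for lower. *Tnnt2* and *Myoz2* are red in both KO versus WT comparisons and blue for KO aYAP versus KO GFP, and most intervals cross 0.

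The study's question on rescue is addressed by KO aYAP against KO GFP. In *Xinβ* KO hearts YAP S127A lowered 4 members (*Tnnt2*, *Myoz2*, *Des* and *Trim63*) and raised 2 (*Mypn* and *Fhl1*, a LIM protein of the sarcomere). *Tnnt2* was at 6587, 6324, 6632 and 6987 CPM in the KO aYAP hearts, all below the KO GFP hearts and within the range of the WT GFP hearts. It fell by 0.62 ± 0.11 (SE, n = 4 per group, limma adjusted p = 0.0017), or by 0.27 under quantile normalization, where the call was lost (adjusted p = 0.095). *Myoz2* was at 406, 408, 508 and 502 CPM in KO aYAP, all below the KO GFP hearts, and fell by 0.51 ± 0.09 (SE, n = 4 per group, limma adjusted p = 0.0014), a call made in all 18 alternatives. *Des* was at 997, 1028, 1140 and 1127 CPM in KO aYAP, again below every KO GFP heart. It fell by 0.40 ± 0.09 (SE, n = 4 per group, limma adjusted p = 0.0067), and the call was lost under quantile normalization (-0.22, adjusted p = 0.059).

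*Trim63* was at 123, 131, 132 and 164 CPM in KO aYAP, where the highest heart overlapped KO GFP, and fell by 0.35 ± 0.11 (SE, n = 4 per group, limma adjusted p = 0.043), with the call lost in 9 of 18 alternatives, among them without KO GFP replicate 1, 3 or 4 or KO aYAP replicate 1, 2 or 3. *Mypn* was at 162, 152, 90.3 and 110 CPM in KO aYAP, all above the KO GFP hearts, and rose by 0.63 ± 0.15 (SE, n = 4 per group, limma adjusted p = 0.011), a call lost with only the 8 compared libraries in the model (adjusted p = 0.063). *Fhl1* was at 112, 91.2, 77.8 and 78.3 CPM in KO aYAP and at 53.0, 29.9, 65.0 and 55.0 CPM in KO GFP. It rose by 0.85 ± 0.23 (SE, n = 4 per group, limma adjusted p = 0.022), and by 0.62 without KO GFP replicate 2, the lowest heart, where it was no longer called (adjusted p = 0.051). The call was also lost without KO aYAP replicate 1 (0.74, adjusted p = 0.073) and without KO aYAP replicate 2 (0.84, adjusted p = 0.052). *Fhl1* was not called between KO GFP and WT GFP (-0.46, limma adjusted p = 0.22). *Palld*, higher in KO GFP than in WT GFP, did not pass between KO aYAP and KO GFP (-0.21, limma adjusted p = 0.25).

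6 of 40 members is 15% of the list, beside 14.8% of all genes tested. 4 fell, beside 6.92% of all genes, and 2 rose, beside 7.85%. 9 had an unadjusted p under 0.05, beside 29.6% of all genes, and 17 had a positive value, beside 51.2%. By role, 1 of 6 thin filament members, 1 of 14 Z-disc members, 1 of 5 desmin network and junctional members and 1 of 4 ubiquitin ligases fell, and 2 Z-disc members rose. The 4 thick filament members, the 5 titin and M-band members and the 2 chaperones held no call, and *Myl2*, *Myl3* and *Mybpc3* differed by -0.05, -0.08 and 0.04, values that changed sign without KO GFP replicate 2 (0.12, 0.02 and -0.01). The median over the members was -0.06 (0.0138 under quantile normalization), beside 0.01 over all genes, with values from -0.62 to 0.85, and the 95% interval lay within a 2-fold change for 38 of 40 and within a 1.5-fold change for 24 of 40. The ratio of *Tnnt2* to *Actn2* was 3.69 to 5.76 in KO GFP, 2.42 to 2.78 in KO aYAP and 2.53 to 2.93 in WT GFP, and that of *Myoz2* to *Actn2* was 0.227 to 0.352, 0.156 to 0.211 and 0.166 to 0.197. The ratio of *Tnnt2* to *Tnnc1* overlapped between KO GFP (3.15 to 5.52), KO aYAP (2.70 to 3.264) and WT GFP (2.22 to 3.18). In WT aYAP hearts the ratio of *Tnnt2* to *Actn2* was 2.83 to 4.57, which overlapped both KO GFP and WT GFP. There the ratio of *Myoz2* to *Actn2* was 0.161 to 0.216 and that of *Tnnt2* to *Tnnc1* 2.85 to 4.00. These ratios are given without a test.

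Of the 64 other sarcomere genes, 13 were called, 20.3% beside 14.8% of all genes, with 8 higher and 5 lower in KO aYAP. *Mybpc2* (1.67, limma adjusted p = 0.00088), *Ankrd23* (1.27, adjusted p = 0.0022) and *Sync* (syncoilin, an intermediate filament protein, 0.69, adjusted p = 0.015) rose, and *Myh7* (-0.97, adjusted p = 0.016) and *Tnni1* (-0.87, adjusted p = 0.0011) fell. The *Myh7* call was lost without KO GFP replicate 1 and the *Sync* call without KO aYAP replicate 1. Both were also lost with only the 8 compared libraries. The fibroblast markers summed to 5049 to 6066 CPM and the macrophage markers to 98.2 to 125 CPM in KO aYAP, above the ranges of KO GFP, and 7 of 9 and 6 of 8 tested rose. The neutrophil markers summed to 3.21 to 14.8 CPM, with 3 of 4 tested lower. Of the 16 cardiomyocyte markers outside the sarcomere none rose and 3 fell, *Ckm* (-0.53), *Cox6a2* (-0.61) and *Pln* (-0.41), with a median of -0.12 and sums of 23077 to 27127 CPM in KO aYAP, which overlapped KO GFP. *Mybpc2* is also 1 of the 17 skeletal muscle markers, of which 5 were tested. 3 of these 5 rose, *Mybpc2*, *Casq1* (1.58) and *Myh8* (1.22), and the list summed to 15.0 to 40.5 CPM in KO GFP, 41.8 to 99.6 CPM in KO aYAP and 44.2 to 54.1 CPM in WT GFP, with *Myod1*, *Myog* and *Myh4* not listed. The 8 endothelial markers summed to 1586 to 1674 CPM in KO aYAP, above KO GFP without overlap, and *Kdr* (0.40) and *Cdh5* (0.26) rose while *Emcn* (-0.45) fell. The atrial markers summed to 69.5 to 201 CPM in KO aYAP and 255 to 456 CPM in KO GFP, without overlap, and of the 4 tested *Nppa* fell (-2.11). On the smooth muscle list *Acta2* (1.26) and *Myh11* (0.82) rose while *Des* fell, with overlapping sums. The erythroid markers summed to 1866 to 2061 CPM in KO aYAP, within the KO GFP range, with a median of 0.02. Against WT GFP (3393 to 8425 CPM) they stayed lower without overlap (median -1.11), though none was called. As in the comparisons with WT hearts, the part of these lists in the members' differences was not tested.

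KO aYAP and WT GFP hearts were compared to ask how far the members lay from control after YAP S127A. None of the 40 members was called, and 0.0206% of all genes were. 4 members had an unadjusted p under 0.05, beside 6.08% of all genes, and edgeR and DESeq2 on recovered reads each called 0 members. 29 members had a positive value, beside 50.1% of all genes. The median over the 40 members was 0.13 (0.126 under quantile normalization), beside 0.00 over all genes. Between KO GFP and WT GFP, a comparison with the same WT libraries, that median was 0.14. *Tnnt2* differed by 0.03 (95% interval -0.20 to 0.26), *Myoz2* by 0.03 (-0.16 to 0.22), *Des* by -0.05 (-0.23 to 0.14), *Trim63* by 0.08 (-0.16 to 0.32) and *Mypn* by 0.15 (-0.18 to 0.47), so that these 5 intervals lay within a 1.5-fold change. These 5 had been called in opposite directions in the comparisons whose log2 differences add up to this one. Of the other called members, *Palld* differed by 0.20 (-0.05 to 0.45) and *Fhl1* by 0.39 (-0.10 to 0.89), an interval that reached beyond a 1.5-fold change. The 3 members with the smallest p were *Csrp3* (a LIM protein of the Z-disc, 0.38), *Ttn* (0.69) and *Lmod2* (0.54), with limma adjusted p of 0.68, 0.78 and 0.78. For *Ttn* the interval reached 1.29 on the log2 scale. A p above the threshold does not show that these groups are alike.

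In WT hearts YAP S127A changed no member past the threshold, nor any other gene of the 14597 by limma (0% called, with 6.93% at an unadjusted p under 0.05). 1 member, *Tnnt2*, had an unadjusted p under 0.05, and edgeR and DESeq2 each called 0 members. *Tnnt2* was at 7504, 7864, 7558 and 8335 CPM in WT aYAP, where the lowest hearts overlapped the highest WT GFP heart, and its difference was 0.27 (95% interval 0.04 to 0.50, limma adjusted p = 0.70). *Lmod2* (0.44, adjusted p = 0.75) and *Trim55* (0.19, adjusted p = 0.82) had the next smallest p. Between KO aYAP and WT aYAP no member was called, beside 0.0411% of all genes (0.00685% higher and 0.0343% lower), with 29 members at a positive value (50.7% of all genes), 6 members at an unadjusted p under 0.05 (11.1% of all genes) and 0 called by edgeR or DESeq2. *Csrp3* (0.43, limma adjusted p = 0.25), *Myom3* (-0.56, adjusted p = 0.36) and *Ldb3* (the Z-disc protein cypher, 0.20, adjusted p = 0.39) had the smallest p, and *Tnnt2* was lower in all 4 KO aYAP hearts than in any WT aYAP heart (-0.24, adjusted p = 0.44). *Myl4*, the atrial and embryonic light chain, was the 1 other sarcomere gene called there (-1.01, limma adjusted p = 0.018), and the call was lost in 6 of 18 alternatives, 5 of which left out 1 library (KO aYAP replicate 1 or 2, or WT aYAP replicate 2, 3 or 4). *Myl4* is 1 of 8 atrial markers, of which 4 were tested and only *Myl4* was called. They summed to 69.5 to 201 CPM in KO aYAP and 210 to 287 CPM in WT aYAP, without overlap, with a median of -0.57. The erythroid sums (1866 to 2061 and 2665 to 3884 CPM) did not overlap either. Nor did the macrophage sums (98.2 to 125 and 93.5 to 96.6 CPM), and no erythroid or macrophage marker was called. The part of the marker lists in the difference was not tested.

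Whether YAP S127A acted differently by genotype was tested with the interaction term over the 16 injected libraries. 2 of 40 members were called, 5%, beside 7.56% of all genes (3.8% with a positive and 3.77% with a negative term). 8 had an unadjusted p under 0.05, beside 23.7%, and 16 had a positive term, beside 51.6%. *Tnnt2* changed by -0.62 in KO and by 0.27 in WT hearts, a difference of -0.88 ± 0.16 (SE, limma adjusted p = 0.0036), and *Mypn* by 0.63 in KO and by -0.16 in WT hearts, a difference of 0.79 ± 0.22 (SE, limma adjusted p = 0.037). *Myoz2* (-0.41, adjusted p = 0.062), *Des* (-0.32, adjusted p = 0.13), *Trim63* (-0.30, adjusted p = 0.27) and *Fhl1* (0.52, adjusted p = 0.36) did not pass, so a difference between genotypes in their response was not shown. *Tnnt2* lost the call under quantile normalization (-0.45, adjusted p = 0.078) and *Mypn* in 9 of 25 alternatives, 8 of which left out 1 library. Of the other sarcomere genes 10 of 64 were called (15.6%, beside 7.56% of all genes). The same term was positive and called for 6 of 9 fibroblast and 3 of 8 tested macrophage markers, and negative and called for 3 of 4 tested neutrophil markers, 2 of 16 cardiomyocyte markers outside the sarcomere and 2 of 4 tested atrial markers (*Nppa*, -2.38, and *Myl4*, -1.01), and their part in the members' terms was not tested.

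**Figure D5:**
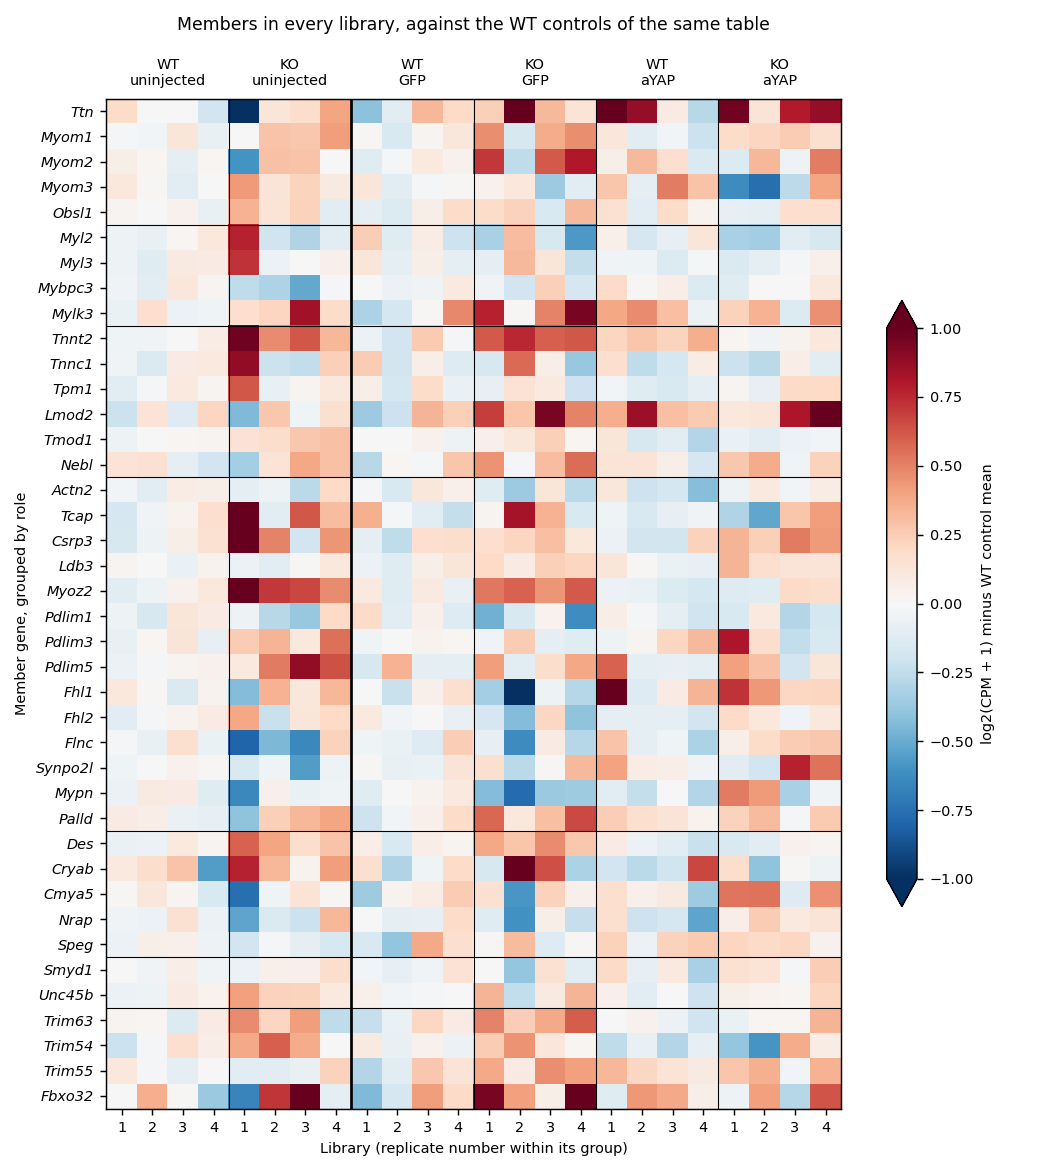
Colours give log2(CPM + 1) of each of the 40 members in each of the 24 libraries, minus the mean of the 4 uninjected WT or 4 WT GFP libraries of the same table, limited to 1 in either direction. The rows of *Tnnt2* and *Myoz2* are red across all uninjected KO and KO GFP libraries, and the first KO uninjected column shows red short and blue long transcripts such as *Ttn*.

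The members differed in how closely hearts of 1 group agreed. The median over the 6 groups of the coefficient of variation was 3.79% for *Tmod1*, 5.03% for *Tnnt2*, 6.84% for *Des* and 7.21% for *Myoz2*, and 27.5% for *Fbxo32* and *Ttn*, 24.5% for *Tcap* (telethonin, which caps titin at the Z-disc), 22.4% for *Cryab* (alpha B-crystallin, a chaperone of desmin) and 20.7% for *Lmod2*. *Ttn* in the injected hearts ran from 1446 CPM in a WT GFP heart to 3986 CPM in a WT aYAP heart, and its groups overlapped. A given difference is therefore less well resolved for *Ttn* or *Fbxo32* than for *Tmod1* or *Tnnt2*.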

How the data were processed

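RNA from 24 hearts was sequenced in strand-specific poly(A) libraries, as 50 bp single-end reads (8 uninjected) or 150 bp paired-end reads (16 injected). The authors used Cutadapt 2.3 for trimming and HISAT2 2.1.0 for alignment (genome GRCm38), counted with StringTie 1.3.4 and computed CPM with edgeR 3.26.1. The deposited signal is CPM on scaled library sizes, and its steps gave whole reads for 99.9% to 100% of the values of a library (tolerance 0.01 of 1 read). In 1 library the smallest value was not 1 read. The paper names Fisher's exact test; here the deposited CPM are not counts, so the main test was on log2(CPM + 1), fitted with limma 3.58.1 (trend, Benjamini-Hochberg) keeping genes above 1 CPM in at least 4 of 8 or 8 of 16 libraries, separately for uninjected (15598 genes) and injected hearts (14597, 1 model). Alternatives were a pseudocount of 0.1, no filter or 5 CPM, median-ratio and quantile scaling, edgeR 4.0.16 and DESeq2 1.42.0 on recovered reads, a replicate block, only the compared groups and leaving out each library; removal of each library's length trend was chosen after seeing the data. In simulated data with 200 genes changed 2-fold, the fit called 86 of them for the uninjected hearts, with 2 false calls. For KO GFP versus WT GFP, simulated with 8 libraries, it called 105 of 200, with 4 false calls, so a 2-fold change can be missed. Symbols and transcript lengths are from GENCODE M21. Members, lists and the naming rule were chosen with earlier results of these data known: called members are named, with the 3 smallest p where none was called, and the 5 largest called changes of other sarcomere genes. Ran in R 4.3.3 and Python 3.11.15.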

Additional observations from a re-analysis of the deposited data

Results flagged for a closer look

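2 of 40 members (5%, beside 7.56% of all genes) responded to YAP S127A differently in *Xinβ* KO and WT hearts by the interaction term. These were *Tnnt2*, with a difference of -0.88 on the log2 scale (limma adjusted p = 0.0036), and *Mypn*, with 0.79 (limma adjusted p = 0.037). The *Tnnt2* call was lost under quantile normalization (limma adjusted p = 0.078), and the *Mypn* call in 9 of 25 alternatives. Among the 10 other sarcomere genes for which the same term passed, the 5 largest were *Mybpc2* (1.49), *Ankrd23* (1.16), *Tnni1* (-1.14), *Myl4* (-1.01) and *Hspb8* (0.93), with limma adjusted p between 0.0044 and 0.045. The *Ankrd23* call was lost in 15 of 25 alternatives, among them quantile normalization, edgeR and the replicate block, and the *Mybpc2* call in 5 of 25, each of which left out 1 library, while those of *Tnni1*, *Myl4* and *Hspb8* were made in all 25.

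3 of 54 groups of 4 held a library far from the other 3 by Dixon's test, and chance gives about 2.7, since it sets apart about 1 group in 20. *Tnnt2* was at 10951 CPM in KO GFP replicate 2, beside 9829 to 9953 CPM in the other 3 KO GFP hearts. The rank correlation of the members' deviations with transcript length was -0.79 in KO uninjected replicate 1, beside 0.09 to 0.24 in the others, and -0.51 in WT aYAP replicate 4, beside 0.23 to 0.38.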

How the results depend on the processing

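No member or other sarcomere gene called in a comparison changed direction there under the alternatives run. Uncalled members near 0 could: for KO aYAP versus KO GFP *Myl2* was at 0.05, *Myl3* at 0.02 and *Mybpc3* at -0.01 with the length trend removed. Members called in uninjected hearts, 2 as reported, were 1 under quantile normalization, 5 with DESeq2, 5 with the length trend removed and 0 with the replicate block (6.53%, 12.5%, 9.83% and 2.47% of all genes in the same fits), and 0 to 6 leaving out 1 library (2.43% to 13.5% of all genes); their median fell from 0.15 to 0.0022 under quantile normalization. Other sarcomere genes called there, 3 as reported, were 9, 8 and 0 with DESeq2, the length trend removed and the block, and 0 to 11 leaving out 1 library. With only the 8 compared libraries, members called between KO GFP and WT GFP fell from 6 to 3 (6.37% of all genes) and other genes from 11 to 7; leaving out 1 library gave 3 to 12 (8.65% to 18.9% of all genes) and 6 to 15. For KO aYAP versus KO GFP other genes fell from 13 to 8 with 8 libraries, and leaving out 1 library gave 4 to 8 members (10.1% to 17.1% of all genes) and 9 to 17 other genes. DESeq2 called 1 other gene for WT aYAP versus WT GFP and 2 for KO aYAP versus WT aYAP, where the length trend removed left 0 and leaving out 1 library gave 0 to 1. The interaction called 1 member with the block (4.84% of all genes), and 1 to 5 members (4.32% to 10.1% of all genes) and 5 to 11 other genes leaving out 1 library. Deviations from group means in same-numbered libraries of different groups correlated at -0.191 to 0.0981 (uninjected) and -0.171 to 0.137 (injected). For differently numbered pairs the ranges were -0.142 to 0.181 and -0.191 to 0.271. No pairing by number was seen, and shared litters could not be examined because litters were not stated. The causes were not tested.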
